A study of Mus musculus with 32 samples.

Results

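The genes described are the heat shock proteins and DnaJ cochaperones of mouse cortex: every symbol of the count tables that begins with Hspa, Hspb, Hspd, Hspe, Hsph, Hsp90, Dnaja, Dnajb or Dnajc followed by a digit or letter, and that averaged at least 1 CPM (counts scaled to the library total) over all 32 libraries. Of 74 symbols with these prefixes 65 met the level, among 24091 genes in the tables. By family they were 11 Hsp70 genes, 3 Hsp110 genes, 3 Hsp90 genes, 2 mitochondrial chaperonin genes, 4 small heat shock protein genes, 4 DnaJ A, 10 DnaJ B and 25 DnaJ C genes, and 3 that carry the prefix by name alone (Hspbp1, Hspbap1 and Hspb11). By the site of the protein, 42 were assigned to the cytosol, nucleus or elsewhere, 13 to the endoplasmic reticulum (ER) and 10 to mitochondria. Just inside the level were Dnajb3 at a mean of 1.20 CPM and Hspb1 at 1.59 CPM, and just outside were Hspb7 at 0.558 CPM and Hspb2 at 0.304 CPM.

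The libraries come from translating ribosome affinity purification (TRAP), in which a ribosomal protein L10a fused to EGFP is expressed from a bacterial artificial chromosome under a driver gene, so that the immunoprecipitate (IP) carries ribosome-bound mRNA of cells in which the driver is active. The labels assign the Gprin3-bacTRAP line (ES152) to lower and the Colgalt2-bacTRAP line (DU9) to upper layer 5b pyramidal cells, and all mice were adults of 8 to 17 weeks. Every animal, controls included, thus carries 1 of these tagging transgenes, and EGFP-L10a is made wherever the driver is active. At baseline there were 2 IPs and 3 whole tissue inputs of primary motor cortex (M1) from wild-type Gprin3-bacTRAP mice, and 2 IPs and 2 inputs from wild-type Colgalt2-bacTRAP mice. In the second set, called the ALS set here because it crosses both lines to SOD1*G93A mice, a model of amyotrophic lateral sclerosis that carries mutant human SOD1, there were 3 IPs of SOD1*G93A and 2 of wild-type (WT) littermates from M1 of Gprin3-bacTRAP mice. The Colgalt2-bacTRAP arm of that set had 4 SOD1*G93A and 3 WT IPs, for which the labels disagree on the tissue: whole cortex in the protocol and the characteristics, M1 in the source name. The inputs of the ALS set, 6 SOD1*G93A and 5 WT, were M1 homogenates of the Gprin3-bacTRAP cross. Source names speak of a mouse for some libraries and of mice for others, and the labels do not otherwise say whether a library is 1 animal or a pool, so the p-values measure the spread between these libraries.

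Heat shock proteins are molecular chaperones that bind unfolded or partly folded proteins. Hsp70 proteins cycle on and off their clients by hydrolysing ATP, which DnaJ (Hsp40) proteins stimulate through their J domain and which nucleotide exchange factors such as the Hsp110 proteins reset. Hsp90 takes over clients that are close to their native state, Hsp60 and Hsp10 fold proteins inside mitochondria, and small heat shock proteins hold unfolded clients without ATP. Heat shock factor 1 induces part of these genes when unfolded protein builds up in the cytosol, while ER chaperones respond to the unfolded protein response of the ER. In long projection neurons, Hsc70 (Hspa8) with its partners auxilin (Dnajc6) and cysteine string protein (Dnajc5) also takes clathrin off synaptic vesicles and keeps synaptic proteins folded.

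Library totals ran from 10863628 to 77220890 counts. The 10 layer 5b marker genes together stood at 1304 to 2620 CPM in the 16 IPs and at 519 to 655 CPM in the inputs, and the driver Gprin3 at 38.9 to 49.7 CPM in baseline Gprin3 IPs against 11.6 to 15.0 CPM in their inputs. Colgalt2 stood at 79.4 to 130.6 CPM in the Colgalt2 IPs and at 4.87 to 8.80 CPM in the Gprin3 IPs, but also at 52.8 to 57.0 CPM in the inputs of the Colgalt2 line. Sod1 counts were 691 to 733 CPM in SOD1*G93A and 320 to 323 CPM in WT Gprin3 IPs, 374 to 453 against 224 to 332 CPM in Colgalt2 IPs, and 357 to 446 against 310 to 385 CPM in inputs. Markers of other cells differed between groups that are compared below. The summed level of 10 oligodendrocyte genes was 138 to 149 CPM in SOD1*G93A and 480 to 660 CPM in WT Gprin3 IPs, and that of 10 vascular genes was 51.0 to 129 CPM in baseline Colgalt2 IPs and 5.71 to 6.85 CPM in baseline Gprin3 IPs. In bulk RNA, fewer cells of a type and less RNA per cell cannot be told apart.

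By level per transcript length (counts per kilobase of the longest annotated transcript, scaled to a fixed sum per library (TPM), averaged over the 32 libraries) the cytosolic Hsp90 gene Hsp90ab1 was the highest member at 2200. Hsp90aa1, its stress-responsive counterpart, followed at 944 and Hspa8 at 888, then the Hsp110 gene Hsph1 at 459.6 and the DnaJ A gene Dnaja2 at 356. The ER Hsp90 gene Hsp90b1 stood at 330.3, the Hsp60 gene Hspd1 at 310.3 and its partner Hspe1, the Hsp10 gene, at 198. The inducible Hsp70 gene Hspa1b at 5.79 and the small heat shock protein gene Hspb1 at 5.52 were near the low end, where Dnajc25 was at 2.02.

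Promoter sequences are shown for members named in the SOD1*G93A comparisons (Hspe1, Hsph1, Dnajb6), for the stress-induced Hspa1a, and for the ER chaperones Hspa5 and Hsp90b1, which passed no test, so that their upstream letters can be compared. The RefSeq table of GRCm38.p6 promoters holds 71 windows, from 250 bases before to 50 after a transcription start, for 54 of the 65 members. A pair of heat shock element units, GAANNTTC, which reads the same on both strands, was found in 15 of these 71 windows (21.1%) and in 7.86% of all 32851 windows of the table. The reversed pair TTCNNGAA was in 8 windows of members (11.3%) and in 8.52% of all windows. The joined triple GAANNTTCNNGAA, searched on both strands and holding both pairs, was in 6 windows of 4 members (8.45%) and in 0.603% of all windows. The ER stress element, CCAAT and CCACG parted by 9 bases on either strand, was in 3 windows (4.23%), those of Hspa5, Hsp90b1 and Dnajc3, and in 0.119% of all. Several windows belong to 1 gene or to neighbours, and a match describes letters, not a bound factor. Of the other members called in SOD1*G93A inputs or Gprin3 IPs, Dnajb1, Dnajc13, Dnaja2 and Hspa4l had windows with neither pair. Hspa8 and Hsp90ab1 had no window. In the sequences below, 5′ to 3′ along the gene, capitals mark these motifs.
Hspe1 promoter, chr1:55087898-55088197, plus strand: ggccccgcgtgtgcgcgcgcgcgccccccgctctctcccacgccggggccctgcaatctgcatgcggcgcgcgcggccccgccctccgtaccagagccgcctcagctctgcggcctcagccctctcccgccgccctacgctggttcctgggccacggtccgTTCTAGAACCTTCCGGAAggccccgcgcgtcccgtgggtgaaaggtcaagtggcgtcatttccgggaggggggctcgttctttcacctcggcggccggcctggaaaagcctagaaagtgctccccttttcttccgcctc
Hsph1 promoter, chr5:149636266-149636565, minus strand: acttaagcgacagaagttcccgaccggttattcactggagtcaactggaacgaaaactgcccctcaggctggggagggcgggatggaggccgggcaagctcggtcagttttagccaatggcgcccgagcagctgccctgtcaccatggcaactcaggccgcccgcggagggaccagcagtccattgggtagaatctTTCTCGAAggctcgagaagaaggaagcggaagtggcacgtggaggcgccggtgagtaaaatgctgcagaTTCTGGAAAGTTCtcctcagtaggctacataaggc
Dnajb6 promoter, chr5:29735648-29735947, plus strand: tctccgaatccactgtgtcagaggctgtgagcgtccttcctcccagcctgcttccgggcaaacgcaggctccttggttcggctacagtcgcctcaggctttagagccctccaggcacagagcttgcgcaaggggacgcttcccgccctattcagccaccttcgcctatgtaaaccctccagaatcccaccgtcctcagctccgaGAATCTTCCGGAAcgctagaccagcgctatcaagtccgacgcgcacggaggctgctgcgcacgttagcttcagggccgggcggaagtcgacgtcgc
Hspa1a promoter, chr17:34972107-34972406, minus strand: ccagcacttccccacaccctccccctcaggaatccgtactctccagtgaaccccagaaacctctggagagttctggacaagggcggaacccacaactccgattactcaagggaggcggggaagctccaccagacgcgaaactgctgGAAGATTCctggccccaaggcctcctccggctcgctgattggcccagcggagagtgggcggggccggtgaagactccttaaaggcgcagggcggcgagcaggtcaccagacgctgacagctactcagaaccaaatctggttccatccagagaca
Hspa5 promoter, chr2:34771840-34772139, plus strand: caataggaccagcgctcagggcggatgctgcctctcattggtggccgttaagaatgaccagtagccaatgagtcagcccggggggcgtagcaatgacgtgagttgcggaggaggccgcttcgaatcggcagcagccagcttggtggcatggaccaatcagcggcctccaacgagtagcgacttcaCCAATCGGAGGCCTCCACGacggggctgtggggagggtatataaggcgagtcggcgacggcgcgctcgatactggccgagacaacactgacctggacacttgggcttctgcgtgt
Hsp90b1 promoter, chr10:86705395-86705694, minus strand: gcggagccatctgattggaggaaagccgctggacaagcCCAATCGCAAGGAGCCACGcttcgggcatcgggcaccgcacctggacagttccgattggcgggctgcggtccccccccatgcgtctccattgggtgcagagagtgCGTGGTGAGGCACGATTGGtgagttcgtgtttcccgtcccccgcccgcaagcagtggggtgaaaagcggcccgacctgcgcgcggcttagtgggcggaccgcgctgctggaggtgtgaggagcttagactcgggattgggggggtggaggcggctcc
The triples were in Hsph1, Dnajb6, Hspe1 and the chaperonin gene Hspd1, which lies head to head with Hspe1: a window of Hspd1 shares 285 bases with that of Hspe1 on the other strand, so both genes count the same triple. The first listed windows of Hspa1a and Hspa1b are identical at 296 of 300 bases. That likeness continues into the transcripts, where 66.3% of the 50-base stretches of Hspa1a also occur in another gene's transcripts, mostly Hspa1b, so the counts of these 2 genes are uncertain. Of the other members, shared stretches were most for Hspa1l (71.4%), Hsp90aa1 (58.5%), Hspa8 (52.7%), Dnaja4 (51.9%) and Hspb1 (51.6%), mostly with pseudogenes or a neighbouring gene. Next came Hspd1 at 44.8%, Dnajb6 at 42.8% and Dnaja1 at 28.8%. How reads fitting several genes were counted is not given in the sources used here, so the counts of these members carry that uncertainty too.

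**Figure D1:**
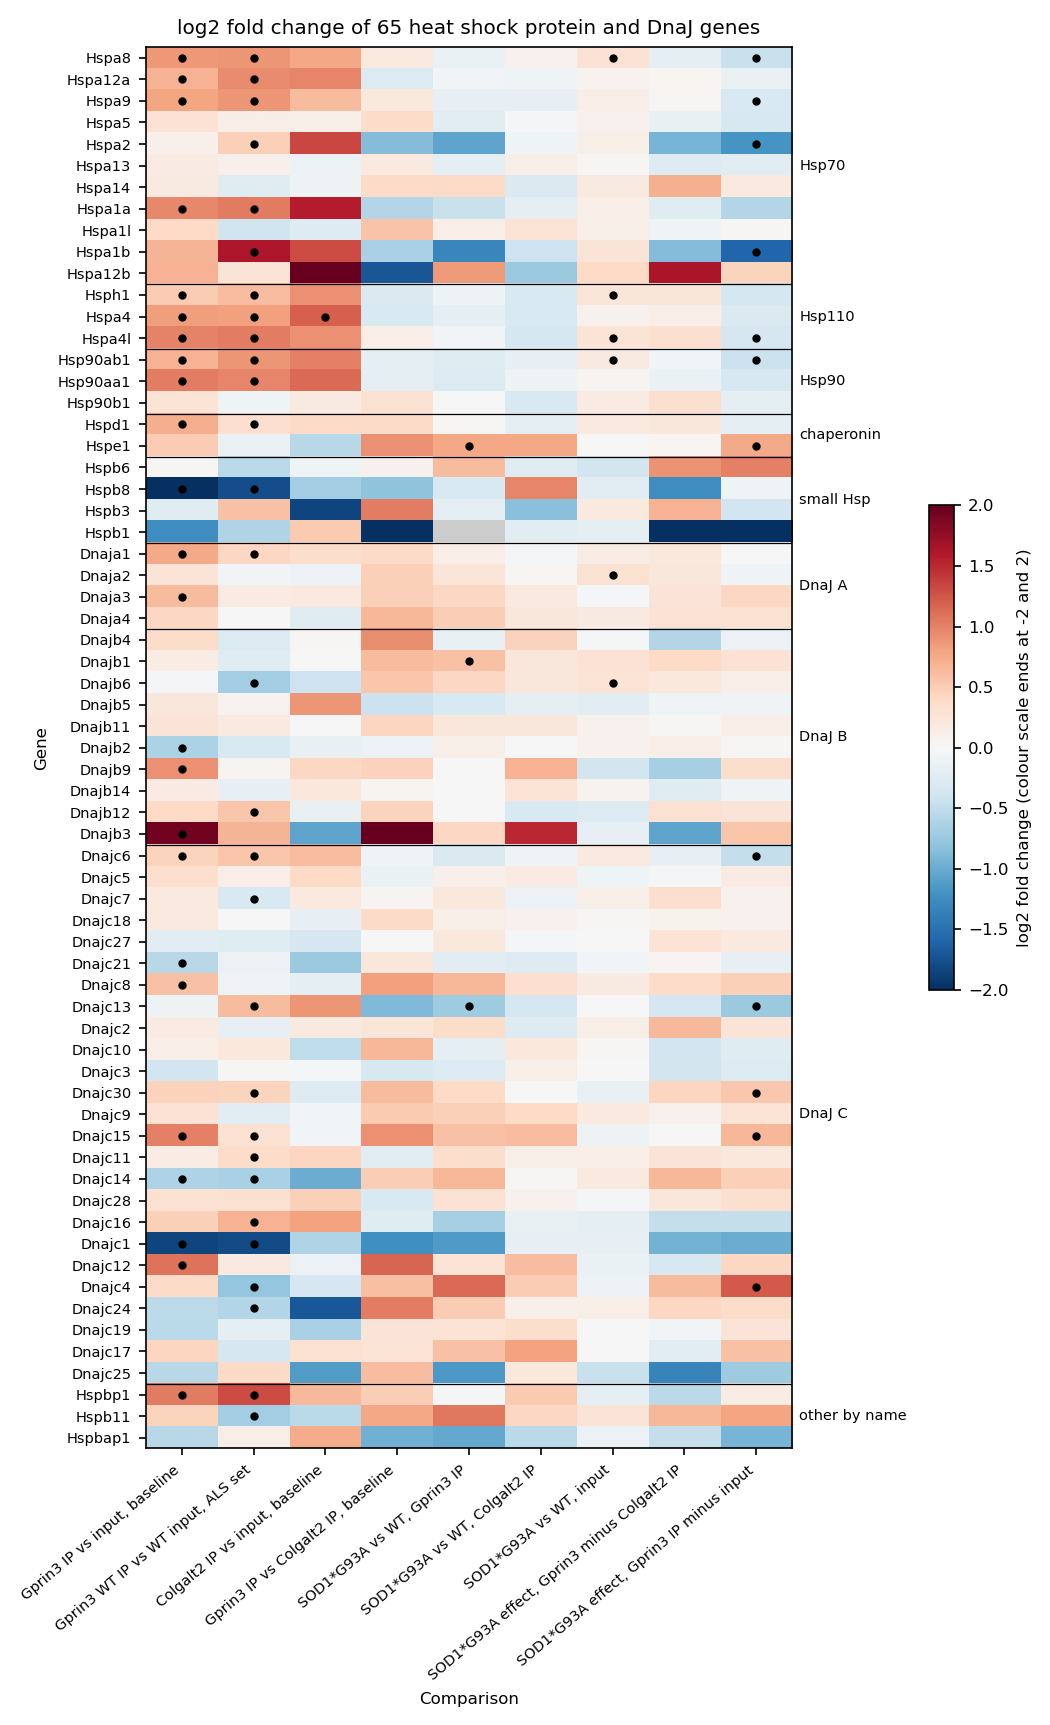
Log2 fold change (colour, ends at -2 and 2) of the 65 genes (rows, by family and then by mean level) in the 9 comparisons (columns). Black dots mark genes past an adjusted p of 0.05 in edgeR's quasi-likelihood test and grey marks a gene that was not tested. The dots gather in the 2 columns of Gprin3 IP against input. There all 3 Hsp110, 2 of 3 Hsp90 and 4 and 6 of 11 Hsp70 genes are marked, and dots also lie in many DnaJ rows.

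The first comparison asks which members are more abundant on ribosomes of lower layer 5b neurons than in whole motor cortex. Cytosolic Hsp90, Hsc70 and all 3 Hsp110 genes were higher in Gprin3 IPs than in their inputs, by 0.51 to 1.03 on the log2 scale, while Hspb8 and the ER-membrane gene Dnajc1 were lower. It was made in 2 sets that share no library, at baseline and with the WT mice of the ALS set. At baseline 19 members were higher and 5 lower of 65, where 13.9% and 15.3% of the 14527 genes tested were called higher and lower (edgeR's quasi-likelihood test, adjusted p under 0.05). In the WT mice of the ALS set 21 were higher and 8 lower, where 20.6% and 19.8% of 14930 genes were called. The members' median log2 fold changes were 0.31 and 0.11, those of all genes -0.03 and -0.04. Higher in both sets were 14 members, 14 of the 19 and 14 of the 21, lower in both were 3, and none was called in opposite directions. With so few libraries, IPs and inputs did not overlap for 34 of the 65 members at baseline and 40 in the ALS set. Overlap was not counted over all genes, so these counts do not set the members apart. At an unadjusted p under 0.05 there were 29 and 32 members, beside 41.6% and 48.1% of all genes.

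Among Hsp70 genes, 4 of 11 were higher at baseline and 6 of 11 in the ALS set, and none was lower in either. Hspa8, the constitutive Hsc70, stood at 1400 and 1339 CPM in the baseline IPs against 804, 891 and 922 CPM in the inputs. In the ALS set it was at 1049 and 1103 CPM in WT IPs and at a lowest of 599.9, a median of 639.6 and a highest of 672 CPM over 5 WT inputs. The groups did not overlap in either set, and the log2 fold changes were 0.87 ± 0.12 (SE; adjusted p = 0.000299) and 0.88 ± 0.08 (adjusted p = 3.07e-08). Hspa9, the mitochondrial Hsp70 mortalin, was at 267 and 242 CPM against 184, 158 and 172 CPM at baseline, again without overlap (log2 0.79 ± 0.14, adjusted p = 0.00131), and rose by 0.88 in the ALS set. Hspa12a, a distant brain-rich relative, was higher by 0.70 and 0.95. The stress-induced Hspa1a stood at 11.9 and 9.45 CPM in baseline IPs and at 6.76, 5.96 and 6.52 CPM in inputs (0.96 ± 0.30, adjusted p = 0.0292; 1.04 ± 0.24 and 0.00194 in the ALS set). The baseline call was lost without IP replicate 1 or any of the 3 inputs (log2 0.75 to 1.14 over the alternatives), and that of the ALS set without WT IP replicate 1 (0.74 to 1.27). At these levels and with sequence shared with Hspa1b, whose own log2 differences were 0.68 ± 0.42 (adjusted p = 0.244) and 1.62 ± 0.26 (6.1e-05), the pair is best read together. Hspa5 (BiP), the Hsp70 of the ER, was at 173 and 218 CPM in IPs and at 167, 225 and 165 CPM in inputs, which overlap (0.29 ± 0.16, adjusted p = 0.196).

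All 3 Hsp110 genes, the exchange factors of cytosolic Hsp70, were higher in both sets. Hspa4l stood at 322 and 267 CPM in baseline IPs and at 186, 163 and 169.5 CPM in inputs (0.99 ± 0.14, adjusted p = 0.000383), and at 361 and 377 CPM in WT IPs of the ALS set against 184 to 208 CPM in inputs (1.02 ± 0.08, 1.1e-08). Hspa4 was at 461 and 343 CPM against 291, 234 and 263 CPM (0.84 ± 0.16, adjusted p = 0.00233). Every IP was above every input for these 2 genes. Hsph1 was at 779 and 590.0 CPM against 582, 589 and 509 CPM, so that the lower IP sat within 1 CPM of the highest input (0.51 ± 0.15, adjusted p = 0.0212). This call was lost without IP replicate 1 or without any of the 3 inputs, with log2 values from 0.27 to 0.72 over the alternatives; in the ALS set Hsph1 (0.61 ± 0.09, adjusted p = 1.38e-05) was called under all alternatives.

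Both cytosolic Hsp90 genes were higher. Hsp90ab1 stood at 2263 and 2035 CPM in baseline IPs and at 1511, 1617 and 1513 CPM in inputs (0.70 ± 0.12, adjusted p = 0.00111), and at 2183 and 2054 CPM in WT IPs of the ALS set against 1196 to 1287 CPM in inputs (0.89 ± 0.07, 1.15e-08). Hsp90aa1 was at 1268 and 1288 CPM against 791, 608 and 785 CPM at baseline (1.03 ± 0.14, adjusted p = 0.000245) and higher by 0.97 ± 0.08 in the ALS set. The groups stood clear of each other for both genes and in both sets. Hsp90b1 (Grp94), the Hsp90 of the ER, was at 323 and 384 CPM in baseline IPs and at 338, 345 and 329.6 CPM in inputs (0.28 ± 0.13, adjusted p = 0.115), and at 277 and 308 CPM against 289.7 to 400.2 CPM in the ALS set (-0.09 ± 0.11, 0.54). Of the 13 ER members 1 was higher and 2 lower at baseline, and 2 and 2 in the ALS set.

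**Figure D2:**
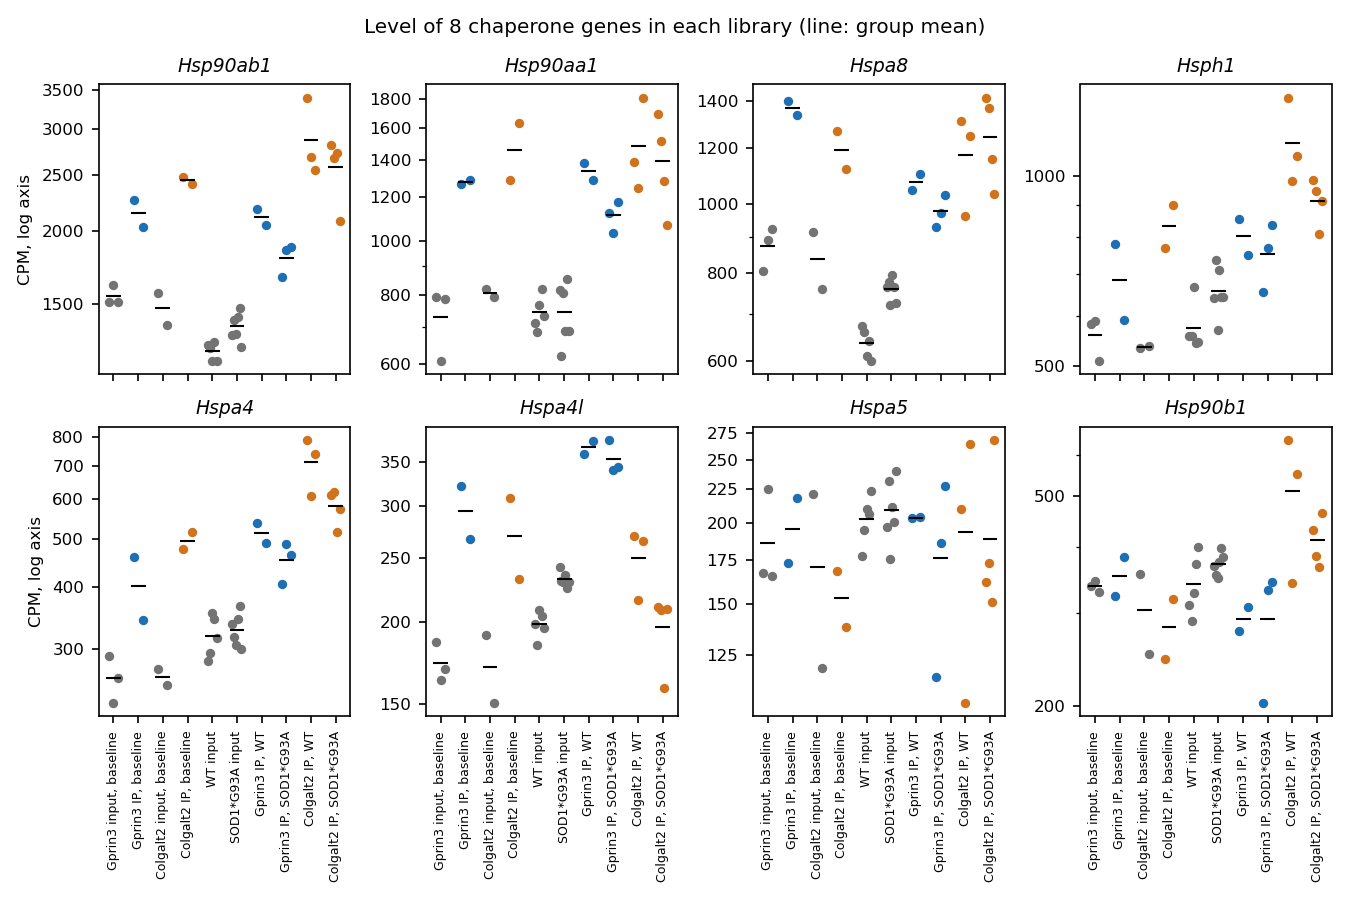
CPM (log axis) of 8 genes in each of the 32 libraries, by group, with inputs in grey, Gprin3 IPs in blue and Colgalt2 IPs in orange; the line is the group mean. The cytosolic Hsp90, Hsc70 and Hsp110 genes lie higher in wild-type Gprin3 IPs than in the wild-type inputs of their set. IPs and inputs overlap there for the ER genes Hspa5 and Hsp90b1. For Hspa4l the SOD1*G93A Colgalt2 IPs lie below the SOD1*G93A inputs, the lowest at 158 CPM.

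The Hsp60 gene Hspd1 was higher in both sets, at 278 and 283 CPM against 195, 209.8 and 187 CPM at baseline (0.73 ± 0.13, adjusted p = 0.0014; 0.33 ± 0.09 and 0.00623 in the ALS set, lost without WT IP replicate 2, log2 0.27 to 0.39). Its partner Hspe1 did not pass, with 72.0 and 139.9 CPM in the baseline IPs, below and above all 3 inputs (80.1, 90.1 and 88.6 CPM). Of 4 small heat shock protein genes 1 was called, and it was lower. Hspb8, whose protein works with the cochaperone Bag3 in clearing misfolded proteins, stood at 3.20 and 1.30 CPM in baseline IPs and at 13.5, 11 and 8.33 CPM in inputs (-2.05 ± 0.44, adjusted p = 0.00437), and at 3.13 and 3.22 CPM against 9.43 to 13.3 CPM in the ALS set (-1.78 ± 0.25, 1.68e-05). No IP reached the level of any input. Bag3 itself was lower at baseline (log2 -1.55 ± 0.43, adjusted p = 0.0181). Hspb1 (Hsp25) was at 0.514 and 0 CPM in baseline IPs and at 0.625, 1.19 and 0.378 CPM in inputs and did not pass.

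DnaJ genes were called in both directions. Dnaja1, a general cytosolic Hsp40, was at 452 and 545 CPM against 373, 335 and 320.2 CPM at baseline (0.76 ± 0.13, adjusted p = 0.00137) and higher by 0.41 ± 0.09 in the ALS set. Dnajc6, the neuronal auxilin, was at 565 and 497 CPM against 464, 415 and 477 CPM (0.45 ± 0.13, adjusted p = 0.024); the baseline call was lost without IP replicate 1 (0.33 at the lowest) or inputs 1 or 2, and the ALS set gave 0.55 ± 0.08 (3.2e-05). Dnajc5, the cysteine string protein, differed by 0.33 ± 0.13 (adjusted p = 0.0817) and 0.14 ± 0.09 (0.23), with IPs and inputs overlapping. Dnajc15, a mitochondrial inner membrane protein, was at 55.1 and 91.3 CPM against 32.6, 42.4 and 52.4 CPM at baseline (1.0 ± 0.23, adjusted p = 0.00659); its value of 0.31 ± 0.12 in the ALS set (0.0478) passed with no library left out and fell short without any 1 of the 7 (log2 0.19 to 0.32 over the alternatives). Dnajc1 stood at 2.91 and 5.08 CPM in baseline IPs and at 15.5, 18.2 and 15.8 CPM in inputs (-1.83 ± 0.32, adjusted p = 0.00117), and at 8.98 and 3.04 CPM against 20.3 to 25.5 CPM in the ALS set (-1.79 ± 0.30, 0.000169). Both sets placed every IP below every input. Dnajc14, an ER-membrane protein whose transcript shares 25.6% of its stretches with other genes, was lower by 0.62 ± 0.20 (adjusted p = 0.0344, lost without IP replicate 1 or any of the 3 inputs, log2 -0.75 to -0.50) and by 0.65 ± 0.20 (0.0125, lost without WT IP replicate 1, log2 -0.95 to -0.41). In all, DnaJ C genes were 4 higher and 3 lower of 25 at baseline and 6 and 5 in the ALS set, shares close to the 13.9% and 15.3%, and 20.6% and 19.8%, of all genes.

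Some members were called in 1 set only, and the difference between sets was not tested. At baseline alone these included Dnajc12, a cochaperone of aromatic amino acid hydroxylases, at 17.4 and 20.9 CPM against 11.1, 12 and 8.24 CPM (1.09 ± 0.25, adjusted p = 0.00672; 0.18 in the ALS set), and Dnajb9 (ERdj4), which targets ER clients for degradation (0.92 ± 0.18, 0.00233; 0.05). Dnajb2, a neuron-rich DnaJ of the cytosol and ER surface, was lower at baseline at 25.1 and 38.0 CPM against 49.3, 69.8 and 51.5 CPM (-0.63 ± 0.22, adjusted p = 0.0444), a call lost without IP replicate 1 or any input (-0.93 to -0.39). In the ALS set alone Dnajb6, a suppressor of protein aggregation, was lower at 122 and 118.5 CPM against 201 to 222 CPM (-0.70 ± 0.09, adjusted p = 6.86e-06), against -0.04 ± 0.15 at baseline. Dnajc13, an endosomal DnaJ protein, was higher in that set alone, at 106 and 117 CPM against 73.0 to 84.4 CPM (0.64 ± 0.10, 5.82e-05), and at baseline lay at 51.9 and 61.3 CPM against 80.1, 64.1 and 67.5 CPM (-0.10 ± 0.17). Hspbp1, an exchange factor of Hsp70 rather than a heat shock protein, was higher in both sets, at 72.3 and 82.4 CPM against 37.4, 49.4 and 44.8 CPM at baseline (1.04 ± 0.17, adjusted p = 0.000812; 1.30 ± 0.13, 3.43e-07).

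**Figure D3:**
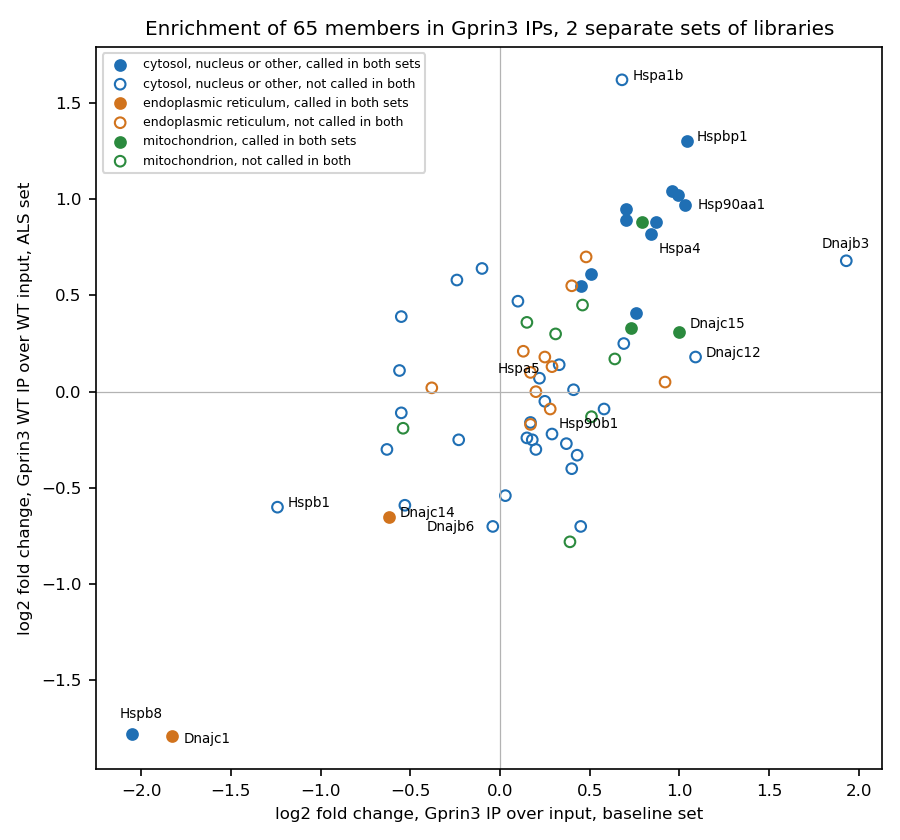
Log2 fold change of Gprin3 IP over input for the 65 genes at baseline (x axis) and in WT mice of the ALS set (y axis), coloured by the site of the protein; filled points passed in both sets. The 14 genes higher in both sets fill the upper right, and the filled points of Hspb8, Dnajc1 and Dnajc14 are the 3 lower in both.

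Partners of these chaperones were taken from lists, some of which share genes (Stip1 is in 3 of them). Of 17 Hsp90 cochaperones 9 were higher and none lower at baseline (median log2 0.51, all genes -0.03), and 8 and none in the ALS set (0.33). They included Stip1 (Hop), which passes clients from Hsp70 to Hsp90, at 165 to 180.2 CPM in baseline IPs and 93.8 to 100.1 CPM in inputs (1.06 ± 0.13, adjusted p = 0.000129), and the phosphatase Ppp5c (1.04 ± 0.16, 0.000576). Of 14 genes of the cytosolic chaperonin TRiC and prefoldin 10 were higher and none lower at baseline, led by Cct7 (0.96 ± 0.14) and Cct3 (0.86 ± 0.15), and 5 were higher and 2 lower in the ALS set, the lower being the prefoldin subunits Pfdn2 (-0.72 ± 0.13) and Pfdn5 (-0.37 ± 0.14). Of 13 Hsp70 cochaperones 3 were higher and 2 lower at baseline and 5 and 1 in the ALS set, where the ER exchange factor Hyou1 was at 68.0 to 72.3 CPM against 28.2 to 38.6 CPM (1.13 ± 0.13, adjusted p = 1.1e-06). Of 6 genes of heat shock factors and their binding proteins 2 were higher and none lower at baseline, and 1 was higher and 1 lower in the ALS set (median log2 0.04). Hsf2 (0.68 ± 0.20 and 0.67 ± 0.14) was higher in both, Hsbp1 (0.56 ± 0.14) at baseline, and the lower gene was Hsf5 (-3.63 ± 1.35, adjusted p = 0.0386), at 0 to 0.0894 CPM in IPs and 0.0773 to 1.27 CPM in inputs. Of 10 further heat-induced genes 6 were higher and 2 lower at baseline and 4 and 2 in the ALS set; the small heat shock protein Cryab, which is rich in glia, was lower at 52.9 to 56.2 CPM against 124 to 183 CPM (-1.24 ± 0.17, adjusted p = 0.000322). Glial and vascular levels moved with the baseline contrast. The oligodendrocyte sum was 161 to 177 CPM in baseline IPs and 1064 to 1409 CPM in inputs. The astrocyte sum was 881 to 897 against 2640 to 3103 CPM and the vascular sum 5.71 to 6.85 against 24.7 to 30.3 CPM. In WT mice of the ALS set the oligodendrocyte sum was 480 to 660 against 1058 to 1402 CPM and the astrocyte sum 1618 to 2348 against 2561 to 3342 CPM. The vascular sum overlapped there, at 16.1 to 24.5 against 20 to 30.7 CPM. The 10 interneuron markers summed to 1656 to 1712 CPM in the baseline IPs and 1063 to 1082 CPM in the inputs, with 4 called higher and 2 lower. The part of these in the members' values was not tested.

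The same question in upper layer 5b neurons rested on 2 Colgalt2 IPs and 2 inputs. Only Hspa4 passed, at 477 and 516 CPM in IPs and at 274 and 254.5 CPM in inputs (1.19 ± 0.22, adjusted p = 0.0478), where 1.75% of 14240 genes were called higher and 0.906% lower. The call was lost without input replicate 1 or 2 (log2 1.03 to 1.28 over the alternatives). Other cytosolic members had smaller values with slightly wider errors and did not pass. Hsp90ab1 stood at 2482 and 2415 CPM against 1568 and 1380.3 CPM (1.01 ± 0.25, adjusted p = 0.0694). Hsp90aa1 was at 1287 and 1629 against 820.5 and 792.5 CPM (1.14 ± 0.27, 0.0655). Hspa8 was at 1269 and 1122 against 914 and 759 CPM (0.78 ± 0.23, 0.0981). Values above that of Hspa4 also did not pass for Hspa1a (1.57 ± 0.33, 0.0541), Hspa2 (1.33 ± 0.26, 0.0518) and Hspa1b (1.31 ± 0.47, 0.146). Of the 65 members 35 had positive values. For Hsp90ab1, Hsp90aa1 and Hspa8 the IPs lay above the inputs. With 2 libraries in each group, IPs and inputs did not overlap for 49 of the 65 members, and overlap was not counted over all genes. Hspa12b, an Hsp70 relative of blood vessels, was at 3.77 and 16.4 CPM against 1.53 and 2.52 CPM (2.68 ± 0.75, adjusted p = 0.0889), with the vascular sum at 51.0 to 129 CPM in these IPs and 23.6 to 34.6 CPM in inputs; its part was not tested. The number of members called ranged widely with the fit: 16 in DESeq2's Wald test, 35 without IP replicate 1, 27 without IP replicate 2 and none without either input. Of the partner genes Cct3 was higher (1.18 ± 0.23, adjusted p = 0.0479) and Cryab lower (-2.39 ± 0.35, 0.0389).

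Set directly against each other at baseline, Gprin3 and Colgalt2 IPs gave no member past the threshold in edgeR, where 2.22% of 13604 genes were called higher and 4.45% lower in Gprin3 IPs. At an unadjusted p under 0.05 there were 11 members of 65 and 22.7% of all genes, and DESeq2 called 2 members. The smallest adjusted p was that of Dnajb4, a heat-inducible Hsp40 of the cytosol, at 266 and 167 CPM in Gprin3 and 113 and 115 CPM in Colgalt2 IPs (0.93 ± 0.29, adjusted p = 0.068). Hsp90ab1 differed by -0.19 ± 0.27, Hsp90aa1 by -0.20 ± 0.27 and Hspa8 by 0.20 ± 0.25, with standard errors as large as the differences. Hspe1 was at 72.0 and 139.9 CPM against 54.6 and 56.7 CPM (0.91 ± 0.31, adjusted p = 0.0967). Hspb1 was at 0.514 and 0 CPM in Gprin3 and at 2.30 and 1.61 CPM in Colgalt2 IPs, and in the ALS set at 0 to 0.536 CPM in the 5 Gprin3 and 2.67 to 6.82 CPM in the 7 Colgalt2 IPs, whose tissue label is the unclear one. The vascular sum was 1.92 to 24.5 CPM in those Gprin3 and 27.3 to 113.9 CPM in those Colgalt2 IPs, and its part in the Hspb1 counts was not tested. Leaving out Colgalt2 IP replicate 2 gave 10 members and leaving out Gprin3 IP replicate 2 gave 1.

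In whole motor cortex the comparison of SOD1*G93A with WT inputs asks whether the chaperone genes change in the tissue of the ALS model. A group of 6 chaperone genes was higher and none lower, where 2.13% of 14324 genes were called higher and 1.2% lower. All 6 changes were small, from 0.18 to 0.30 on the log2 scale. They were Hspa8, Dnaja2, Hspa4l, Dnajb6, Hsph1 and Hsp90ab1, and none of the 13 ER or 10 mitochondrial members was among them.

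Hspa8 was at 599.9, 639.6 and 672 CPM (lowest, median and highest of 5) in WT inputs and from 719.7 to 794 CPM in the 6 SOD1*G93A inputs. Its groups did not overlap (0.29 ± 0.05, adjusted p = 0.00406). Hspa4l, at 184 to 208 CPM in WT and 225 to 242.5 CPM in SOD1*G93A inputs, did not overlap either (0.27 ± 0.06, adjusted p = 0.0091). The same held for Dnaja2, at 357 to 414.5 CPM against 423.5 to 499 CPM (0.30 ± 0.06, 0.0091), and for Dnajb6, at 201 to 222 CPM against 226 to 267 CPM (0.27 ± 0.06, 0.0133). These 4 calls held without any 1 of the 11 libraries. In a joint fit of all 10 groups, which share 1 estimate of the spread, none of the 6 was called. Hsph1 was at 543 to 668 CPM in WT and 570.2 to 736 CPM in SOD1*G93A inputs, which overlap through WT replicate 3 and SOD1*G93A replicate 3 (0.24 ± 0.06, adjusted p = 0.0379). Its call was lost in 7 of the 11 fits that leave a library out, all but those without WT replicate 3 or SOD1*G93A replicate 3, 5 or 6. Hsp90ab1 was at 1196 to 1287 CPM against 1265 to 1476 CPM (0.18 ± 0.05, adjusted p = 0.0496) and kept its call only without SOD1*G93A replicate 6 among those 11. Over these fits and the other settings the log2 values ran from 0.20 to 0.29 for Hsph1 and from 0.16 to 0.21 for Hsp90ab1.

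**Figure D4:**
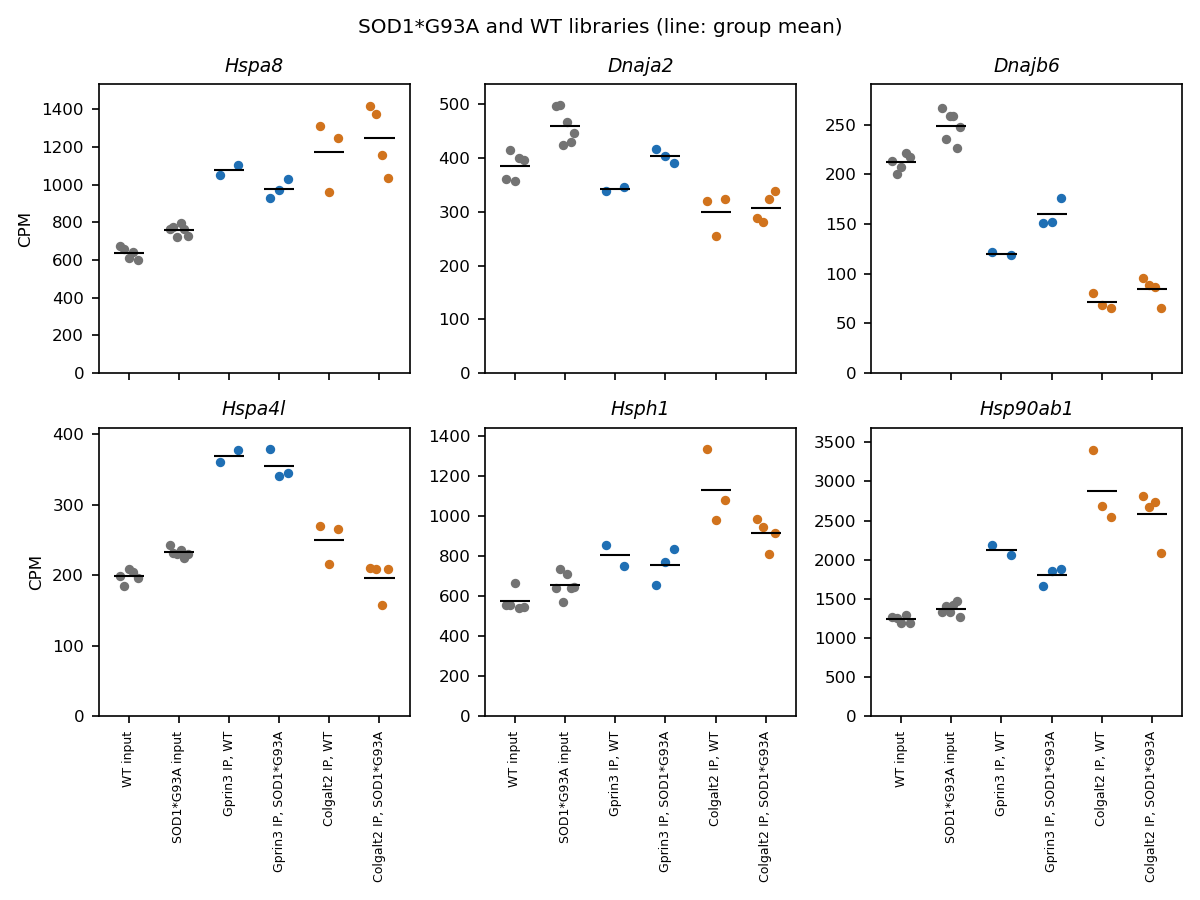
CPM of the 6 genes called higher in SOD1*G93A inputs, in inputs (grey), Gprin3 IPs (blue) and Colgalt2 IPs (orange) of the ALS set; the line is the group mean. SOD1*G93A inputs lie above WT inputs without overlap for Hspa8, Dnaja2, Dnajb6 and Hspa4l, and with overlap for Hsph1 and Hsp90ab1.

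Other heat shock genes named here did not pass in the inputs, some with log2 differences as large as those called. Hsp90aa1 was at 684 to 820 CPM in WT and 620 to 853 CPM in SOD1*G93A inputs (0.05 ± 0.07, adjusted p = 0.802), and Dnajb1, the main inducible Hsp40, at 169.8 to 251 against 189 to 284 CPM (0.29 ± 0.11, 0.155). Hspa1a was at 5.49 to 8.92 against 6.86 to 9.05 CPM (0.13 ± 0.16, adjusted p = 0.744), Hspa1b differed by 0.26 ± 0.21 (0.557) and Hspb1 by -0.20 ± 0.46 (0.876). Hspa5 differed by 0.09 ± 0.07 (adjusted p = 0.553) and Hsp90b1 by 0.17 ± 0.07 (0.182), and ER Dnajb9 by -0.36 ± 0.10 (0.0528). Hspd1 missed the threshold at 195 to 227 against 232 to 249 CPM, without overlap (0.20 ± 0.06, 0.0554). Among partners, 2 of 17 Hsp90 cochaperones were higher, the immunophilins Ppid (64.0 to 76.0 against 78.0 to 97.6 CPM; 0.33 ± 0.08, adjusted p = 0.0179) and Fkbp4 (0.30 ± 0.08, 0.0329), as was the TRiC subunit Cct5 (0.24 ± 0.07, 0.0465). None of 13 Hsp70 cochaperones and none of 6 heat shock factor genes was called. The mean summed level of every list of glial, vascular and blood markers was lower in SOD1*G93A than in WT inputs, though no gene of these lists was called and the libraries overlapped in all of the lists. The mean sums were 1147 against 1249 CPM for oligodendrocyte, 69.9 against 76.7 CPM for oligodendrocyte precursor, 2683 against 2992 CPM for astrocyte and 56.9 against 67.9 CPM for microglia markers. They were 20 against 25.4 CPM for vascular and 34.6 against 45.5 CPM for blood markers, whose median log2 differences of -0.34 and -0.35 are larger in size than the changes of the 6 called members. Their part in the members' values was not tested.

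In Gprin3 IPs the same genotype comparison asks for changes in lower layer 5b neurons themselves. Of 64 members tested 2 were higher and 1 lower, where 2.92% of 13726 genes were called higher and 5.22% lower. Hspe1 (Hsp10) was at 106, 96.8 and 90.5 CPM in SOD1*G93A and at 57.8 and 55.9 CPM in WT IPs (0.78 ± 0.17, adjusted p = 0.0182). Dnajb1 was at 240.5, 225 and 263 CPM against 168 and 155 CPM (0.59 ± 0.13, 0.0249). Dnajc13, the endosomal DnaJ protein, was lower at 65.1, 75.5 and 63.8 CPM against 106 and 117 CPM (-0.71 ± 0.15, adjusted p = 0.0191). The SOD1*G93A and WT libraries of these 3 genes did not overlap, which held for 31 of the 65 members. Overlap was not counted over all genes, so this count does not set the members apart. At an unadjusted p under 0.05 there were 16 members of 64 and 23.6% of all genes. No member was called without WT replicate 1 or without WT replicate 2, 6 were called without SOD1*G93A replicate 1, and none when a trend of counts with transcript length was taken out of each library, where Hspe1, whose transcript of 964 bases is among the shortest of the members, stood at 0.32 and Dnajc13, with 8012 bases, at -0.28. The call of Dnajb1 was also lost without SOD1*G93A replicate 3, as was that of Dnajc13.

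Among members that rose in the inputs, none was called here. Hspa8 was at 929, 973 and 1031 CPM against 1049 and 1103 CPM (-0.14 ± 0.10, adjusted p = 0.441), Hsp90ab1 at 1669.8, 1856 and 1879.6 against 2183 and 2054 CPM (-0.24 ± 0.09, 0.148), and Hspa4l at 378, 341 and 344 against 361 and 377 CPM (-0.06 ± 0.12, 0.834). The SOD1*G93A values of the first pair lay below both WT values, and those of Hspa4l spanned them. Dnajb6 (0.41 ± 0.14, adjusted p = 0.102) and Dnaja2 (0.24 ± 0.11, 0.229) went the other way, with SOD1*G93A above WT IPs. Hsph1 differed by -0.10 ± 0.12 (adjusted p = 0.69), with overlap. Hspa1b was at 1.73, 3.31 and 5.83 CPM against 9.61 and 8.22 CPM (-1.31 ± 0.57, adjusted p = 0.193), Hspa2 at 11.1, 15.6 and 20.8 against 30.9 and 34.4 CPM (-1.05 ± 0.29, 0.0526). Hspa1a, which shares most of its sequence with Hspa1b, differed by -0.45 ± 0.43 (adjusted p = 0.598), with overlap. Hspb1 was not tested, at 0, 0 and 0.113 CPM against 0.447 and 0.536 CPM. Of the partners, Bag1, an exchange factor of Hsp70, was higher at 287 to 362 against 139 to 208 CPM (0.91 ± 0.18, 0.0131), as were the Hsp90 activator Ahsa1 (0.59 ± 0.15, 0.0331) and Pfdn2 (0.83 ± 0.17, 0.0169). Beside these values, 6 of 10 astrocyte, 7 of 10 oligodendrocyte and 1 of 9 tested microglia markers were lower in SOD1*G93A IPs, the astrocyte sum being 805 to 826 CPM against 1618 to 2348 CPM and the oligodendrocyte sum 138 to 149 CPM against 480 to 660 CPM. The vascular sum was 1.92 to 4.84 CPM with 2 of the 10 genes at 0 in all 3 libraries, against 16.1 to 24.5 CPM. Their part in the members' values was not tested.

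In Colgalt2 IPs no member was called between SOD1*G93A and WT in edgeR or DESeq2, where 0% of 14785 genes were called higher and 0% lower in edgeR. At an unadjusted p under 0.05 there were 7 members of 65 and 7.26% of all genes. The smallest adjusted p of a member, 0.477, was that of Hspe1, at 43.6, 32.6, 55.7 and 45.4 CPM in SOD1*G93A and 23.9, 20.7 and 32.8 CPM in WT IPs (0.77 ± 0.23). Its log2 value was close to the 0.78 of the Gprin3 IPs, and 1 SOD1*G93A library lay just below the highest WT library. Hspa8 differed by 0.08 ± 0.16, Hsp90ab1 by -0.16 ± 0.15, Dnajb1 by 0.22 ± 0.17 and Hspb1 by -0.23 ± 0.39.

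**Figure D5:**
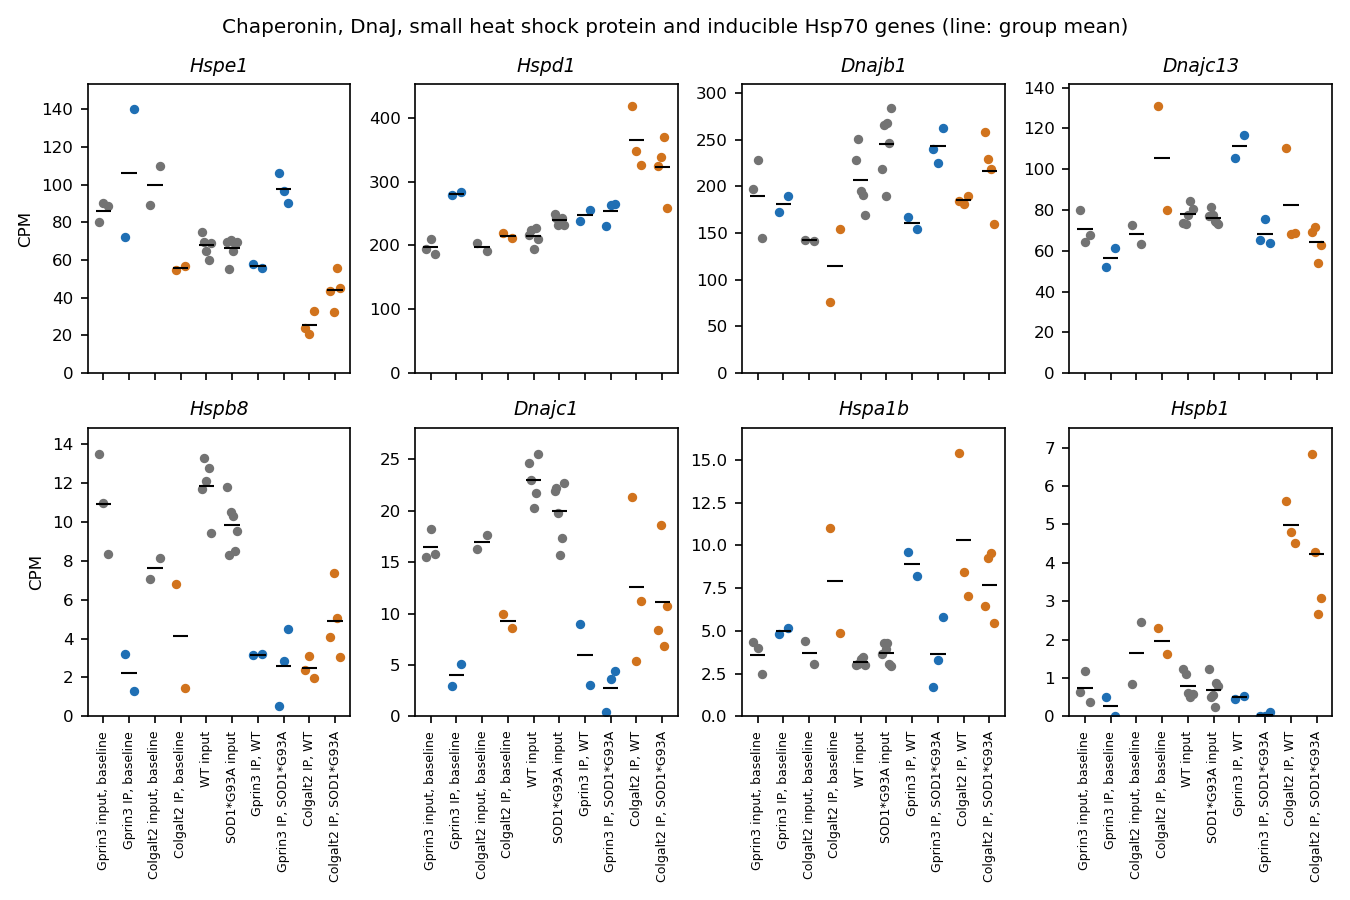
CPM (linear axis) of 8 further genes in each library, by group, with inputs in grey, Gprin3 IPs in blue and Colgalt2 IPs in orange; the line is the group mean. Hspb8 and Dnajc1 lie low in the Gprin3 IPs, Hspe1 and Dnajb1 lie higher in SOD1*G93A than in WT Gprin3 IPs and Dnajc13 lower, and Hspb1 reaches 6.82 CPM in Colgalt2 IPs of the ALS set.

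Whether the SOD1*G93A effect differed between the lines was tested as an interaction. It was called for no member in edgeR or DESeq2, where 0% of 15476 genes were called higher and 0.0775% lower for Gprin3 minus Colgalt2, and 4 members had an unadjusted p under 0.05 beside 9.26% of all genes. The difference of the effects was 0.04 ± 0.31 for Hspe1, 0.40 ± 0.24 for Dnajb1, -0.34 ± 0.27 for Dnajc13 and -0.20 ± 0.22 for Hspa8.

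The effect in Gprin3 IPs differed from that in M1 inputs for 12 members of 65, 4 with a higher and 8 with a lower effect in the IPs. Of 15495 genes 6.78% and 11.4% were called in these directions, so the members' shares were close to those of all genes. The contrasts in IPs and in inputs share no library. All 4 with a higher effect were among the 10 mitochondrial members: Hspe1 (0.76 ± 0.15, adjusted p = 0.00129), Dnajc15 (0.66 ± 0.21, 0.0338), Dnajc30 (0.54 ± 0.17, 0.0334) and Dnajc4 (1.23 ± 0.37, 0.0225). The effects in IPs and in inputs were 0.78 and 0.01 for Hspe1, 0.58 and -0.10 for Dnajc15, 0.40 and -0.15 for Dnajc30 and 1.13 and -0.12 for Dnajc4, of which only Hspe1 in IPs was called. Dnajc4 was at 16.9, 9.92 and 6.39 CPM in SOD1*G93A and 5.23 and 4.94 CPM in WT Gprin3 IPs, and at 7.20 to 9.13 against 8.06 to 10.6 CPM in inputs. Dnajc15 was at 92.5, 57.3 and 60.3 against 47.4 and 46.9 CPM in IPs and at 32.2 to 43.4 against 37.7 to 43.3 CPM in inputs. For both genes the SOD1*G93A IPs lay above the WT IPs and the inputs overlapped, and the calls were lost without WT IP replicate 1 or 2 or SOD1*G93A IP replicate 1 (log2 0.76 to 1.51 for Dnajc4 and 0.38 to 0.94 for Dnajc15). That of Dnajc15 was also lost without SOD1*G93A input replicate 1, and that of Dnajc30 without WT IP replicate 2 or SOD1*G93A IP replicate 1 (0.27 to 0.78).

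Of the 8 with a lower effect 7 were in the class of cytosol, nucleus or other, which holds 42 of the 65 members. Hspa8 (-0.45 ± 0.10, adjusted p = 0.00221), Hsp90ab1 (-0.43 ± 0.10, 0.00259) and Hspa4l (-0.34 ± 0.11, 0.0269) were called higher in SOD1*G93A inputs and were not called in IPs. Dnajc6, the auxilin, was at 524, 489 and 453 CPM in SOD1*G93A against 575 and 615 CPM in WT IPs and at 449 to 516 against 403 to 475 CPM in inputs (effects of -0.29 and 0.19, difference -0.48 ± 0.11, 0.00408). Dnajc13 (-0.74 ± 0.13, 0.000365), Hspa2 (-1.18 ± 0.26, 0.00267) and Hspa1b (-1.58 ± 0.47, 0.021) had effects of -0.71, -1.05 and -1.31 in IPs and of 0.01, 0.12 and 0.26 in inputs, and the call of Hspa1b was lost without either WT IP (log2 -2.12 to -1.25). That of Dnajc6 was lost without WT IP replicate 2 (-0.56 to -0.28), and that of Hspa4l without WT IP replicates 1 or 2, SOD1*G93A IP replicate 2 or WT input replicates 2 or 5. Hspa1a, whose counts cannot be fully parted from those of Hspa1b, was not called, with an effect of -0.45 ± 0.43 in IPs. Mitochondrial Hspa9 (-0.31 ± 0.10, adjusted p = 0.0404), with effects of -0.17 in IPs and 0.13 in inputs, lost its call in 14 of 16 fits that leave a library out. Without WT Gprin3 IP replicate 1 there were 7 called members and without replicate 2 there were 5. With the length trend taken out 7 members were called and 6 of the 12 calls were lost. Of these, Hspe1 stood at 0.29, Dnajc30 at 0.27, Dnajc4 at 0.80, Dnajc6 at -0.28 and Dnajc13 at -0.29, and Hspa4l, with the longest transcript of the members at 9479 bases, turned to 0.22 (adjusted p = 0.17). The glial sums given for the Gprin3 IPs differ in this contrast as well, with 9 of 10 oligodendrocyte and 9 of 10 astrocyte markers called lower and 1 astrocyte marker higher, and their part was not tested.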

How the data were processed

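Per the file headers and labels, the deposited files hold raw counts per gene for each of 32 libraries (24100 features). Per the labels' protocols, 15 ng of RNA was amplified with the NuGEN Ovation V2 system and made into TruSeq v2 libraries. Per the submitters' processing notes, the authors used Subread and featureCounts, both without a stated version, DESeq2 1.26.0 and mm10. The 9 features without a symbol, at most 0.0201% of a library's counts, were left out, and 36 columns of transformed values per library in the authors' comparison tables were not used.

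Groups follow the labels. CPM are counts over the library total. Tests on the counts ran under R 4.3.3 in edgeR 4.0.16, with limma 3.58.1 loaded: filterByExpr, TMM factors, robust quasi-likelihood F tests on the groups of each comparison, interaction contrasts for differences of effects, and Benjamini-Hochberg adjustment over all genes at 0.05. Standard errors are the log2 fold change over the root of F. The procedure was checked on simulated counts. Alternatives were RLE factors and the Wald test of DESeq2 1.42.0, no low-count filter, replicate numbers as a block, a joint fit of the 10 groups, a length trend taken out, the sequenced read as a covariate, other WT IPs, and each library left out. Lengths come from the longest GENCODE transcript of GRCm38.

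Members and lists were chosen with earlier results of these data known. Named were 27 fixed members, up to 8 called members per comparison and direction with the largest fold change and at least 5 CPM in the higher group, the drivers with Sod1, and the 2 called genes with the smallest p per list and direction; Dnajb4, Dnajc25, Dnaja2, Dnajb3, Hspa1l, Dnaja4 and, where not called, Dnajb9 and Hspa12b were added after their values were seen. Precision is limited by 2 libraries in several groups.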

Additional observations from a re-analysis of the deposited data

Results flagged for a closer look

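In groups of 4 to 6 libraries, 81 values of named members were examined for a library apart from the rest. Of these 3 were flagged, where chance flags about 1 in 20. Hspa12b, an Hsp70 relative of blood vessels, was at 4.22 CPM in SOD1*G93A input replicate 2 and at 1.06 to 1.94 CPM in the other inputs of that group. Hspa4l was at 158 CPM in SOD1*G93A Colgalt2 IP replicate 3, the only library of that group named as read 1 in the deposited file, and at 208.5 to 210.2 CPM in the others. Hsph1 was at 668 CPM in WT input replicate 3 and at 543 to 558 CPM in the other WT inputs.

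The SOD1*G93A effect differed between Gprin3 IP and M1 input, by the interaction test, for 12 members. Such calls made up 6.78% (higher) and 11.4% (lower) of all genes tested, close to the members' shares. The differences on the log2 scale, IP minus input, were 1.23 for Dnajc4, 0.76 for Hspe1, 0.66 for Dnajc15 and 0.54 for Dnajc30. They were -1.58 for Hspa1b, -1.18 for Hspa2, -0.74 for Dnajc13, -0.48 for Dnajc6, -0.45 for Hspa8, -0.43 for Hsp90ab1, -0.34 for Hspa4l and -0.31 for Hspa9. Hspa1a, which shares most of its sequence with Hspa1b, was not called.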

How the results depend on the processing

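Of 75 called member values, 42 stayed called without any 1 library and 33 under every alternative run; of 1050 values under alternatives 861 stayed called in the same direction, 188 lost the call and 1 turned sign, Hspa4l in the IP minus input contrast (0.22 with the length trend taken out). For Gprin3 IP against input 16 baseline and 16 ALS-set calls held under every alternative. The number of members called was 19 in place of 29 for the ALS set in the joint fit of all 10 groups. For Colgalt2 IP against input it was 14 with no low-count filter, 16 in DESeq2, 11 with the replicate block, 21 in the joint fit, 0 with the length trend taken out and 0 to 35 with a library left out, in place of 1. For Gprin3 against Colgalt2 IPs it was 5 with no filter, 2 in DESeq2, 1 with the replicate block, 20 in the joint fit, 9 with the WT IPs of the ALS set and 0 to 10 with a library left out, in place of 0. For SOD1*G93A in Gprin3 IPs it was 6 in DESeq2, 11 in the joint fit, 0 with the length trend taken out and 0 to 6 with a library left out, in place of 3. In the joint fit it was 1 in place of 0 for Colgalt2 IPs and 0 in place of 6 for inputs. For IP minus input it was 6 in the joint fit, 7 with the length trend and 5 to 15 with a library left out, in place of 12. The causes were not tested. Libraries with the same replicate number in 2 compared groups showed little correlation of their deviations (-0.2 to 0.13). With 2 libraries in a group this cannot exclude a pairing, and SOD1*G93A Gprin3 IPs were not checked against SOD1*G93A inputs. With the replicate block the number of members called was 23 in place of 24 for baseline Gprin3, 21 in place of 29 for the ALS set, 7 in place of 6 for inputs and 8 in place of 12 for the interaction, counting members newly called. Groups of 2 libraries limit what these fits can separate.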
